A study of Mus musculus with 20 samples.

Results

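The left ventricular wall of mice that lack the glucocorticoid receptor in cardiomyocytes was compared with that of control mice at lights off. All 10 ZT12 libraries among the 20 of the series were used, chosen by the genotype and time in their titles: 5 from CardioGRKO and 5 from GRflox. ZT12 is the hour at which the lights went off, and ZT0, used below only to ask whether a difference depended on time, the hour at which they went on. GRflox mice carry floxed alleles of the receptor gene Nr3c1 (GRfl/fl). In CardioGRKO mice a Cre under the alphaMHC promoter, which restricts it to cardiomyocytes, is added to these alleles (GRfl/fl alphaMHCCre/+). The controls have no Cre, so receptor loss and the presence of Cre cannot be told apart in these groups. All mice were C57BL/6 males aged about 9 to 13 weeks. Hearts were perfused with Tyrode solution, RNA of the free wall was selected for poly(A), and the libraries were read as paired ends of 75 bases. The wall holds endothelial cells, fibroblasts and other cells beside cardiomyocytes, so fewer cells of a type and less RNA per cell cannot be told apart.

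The glucocorticoid receptor is a nuclear receptor that waits in the cytoplasm bound to chaperones, moves to the nucleus when it binds corticosterone, and raises or lowers transcription at sites on DNA. Corticosterone in mice, which are active at night, is high near lights off. In the heart the receptor is known to act on energy metabolism, contraction and calcium cycling, and classical targets include Per1, Tsc22d3, Fkbp5, Zbtb16, Klf9 and Klf15.

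Counted reads per library ranged from 15934271 to 35221101, with a median of 23121018. The first principal component of the 10 libraries (35.4% of the variance) separated the genotypes, at -20.7 to -17.6 in GRflox and 15.1 to 24.2 in CardioGRKO, and the next (14.7%) did not. Levels below are CPM, read counts relative to library size scaled by TMM, which corrects for library composition, and they compare libraries, not genes. Differences are log2 fold changes, CardioGRKO minus GRflox, ± their standard error with 5 libraries per group. A gene is said to have risen or fallen, or to be higher or lower, where the Benjamini-Hochberg adjusted p of edgeR's quasi-likelihood test was under 0.05. The labels number the libraries without tying them to separate animals, so the p-values measure the spread between libraries, which may be technical.

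The targeted gene was lower in the wall in CardioGRKO and remained detected. Nr3c1 (Entrez gene 14815, chromosome 18, 39410545 to 39519421 in GRCm38.p6) stood at 109, 117, 95.3, 108 and 106 CPM in the GRflox libraries and 51.9, 48.6, 51.8, 46.7 and 55.9 CPM in the CardioGRKO libraries. Every CardioGRKO library lay below every GRflox library, and the difference was -1.08 ± 0.06, 2.11-fold (edgeR, adjusted p = 5.17e-12). Counts were summed over the gene and come from every cell type of the wall, so reads of the floxed segment were not told from the rest. The mineralocorticoid receptor gene Nr3c2, whose product binds the same hormone, ranged over 22.6 to 31.1 CPM in GRflox and 24.5 to 39.96 CPM in CardioGRKO and did not pass the test (0.16 ± 0.12, adjusted p = 0.382). Hsd11b1, the enzyme that regenerates active corticosteroid, did not pass either (-0.22 ± 0.10, adjusted p = 0.124) except without replicate 2 of CardioGRKO (-0.32), while H6pd, which supplies its cofactor, was lower in all 5 CardioGRKO libraries (-0.30 ± 0.06, adjusted p = 0.000282).

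Of 18 tested genes of the receptor and its machinery 6 were lower and none was higher, with a median of -0.09. The 6 include the targeted gene Nr3c1 itself, and Fkbp5, which is counted among the glucocorticoid-induced genes as well. Over all genes tested 10.7% were lower and 10.4% higher, with a median of 0.0042. Fkbp5, a co-chaperone that the receptor itself induces, fell from 50.1 ± 19.2 to 26.7 ± 6.37 CPM (mean ± SD, n = 5 here and below), with overlap between the groups. The chaperone genes Hsp90ab1 (0.09 ± 0.10) and Fkbp4 (0.05 ± 0.07) did not pass. The coactivator gene Ncoa3 (-0.20 ± 0.05) and the corepressor gene Ncor1 (-0.13 ± 0.04) were lower by small amounts. With library totals in place of TMM, an alternative chosen after seeing the data, neither of them was called, and 3 members of the list were lower and 1 higher. Ncor1 also lost the call with no filter, with the ZT12 libraries alone and without replicate 3 or 5 of GRflox or replicate 3 of CardioGRKO (-0.13 to -0.10).

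Across the transcriptome 2952 of 14007 tested genes (21.1%) differed, 1453 upwards (10.4%) and 1499 downwards (10.7%) in CardioGRKO. The changes were mainly modest, with 2245 of them under 1.5-fold, while 168 genes rose and 113 fell by at least 2-fold. The groups of 5 did not overlap for 13.8% of all genes, 6.6% with CardioGRKO above and 7.22% with CardioGRKO below. Counts in each gene list are to be read against these shares. For lists of abundant genes the base is higher, as 37.0% of genes with a mean log2 CPM of at least 6 were called. The lists were chosen with earlier results of these data known. The balance of rises and falls depended on the scaling. TMM factors were 0.961 to 0.974 in GRflox and 1.011 to 1.04 in CardioGRKO, and with library totals in their place 3088 genes were higher and 853 lower, 78.4% of calls higher against 49.2% with TMM.

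With TMM scaling falls outnumbered rises among the most abundant transcripts. Of the 100 genes with the highest CPM 56 were lower and 5 higher. As a percentage of the nominal CPM total, genes called lower summed to 43.9 in GRflox and 36.0 in CardioGRKO. Genes called higher summed to 7.67 and 9.91, and genes not called to 51.9 and 51.4. TMM scaling shifts the group totals, so these are not shares of what each group holds. The calls themselves defined the classes, which fixed the direction. Among 2755 genes with a mean log2 CPM of at least 6, 724 were lower and 295 higher, whereas among 3490 genes between 0 and 3, 163 were lower and 305 higher. Calls made up 37.0% of the first class and 13.4% of the second. These counts by level were not made with library totals, which moved the median over all genes from 0.0042 to 0.0916.

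**Figure D1:**
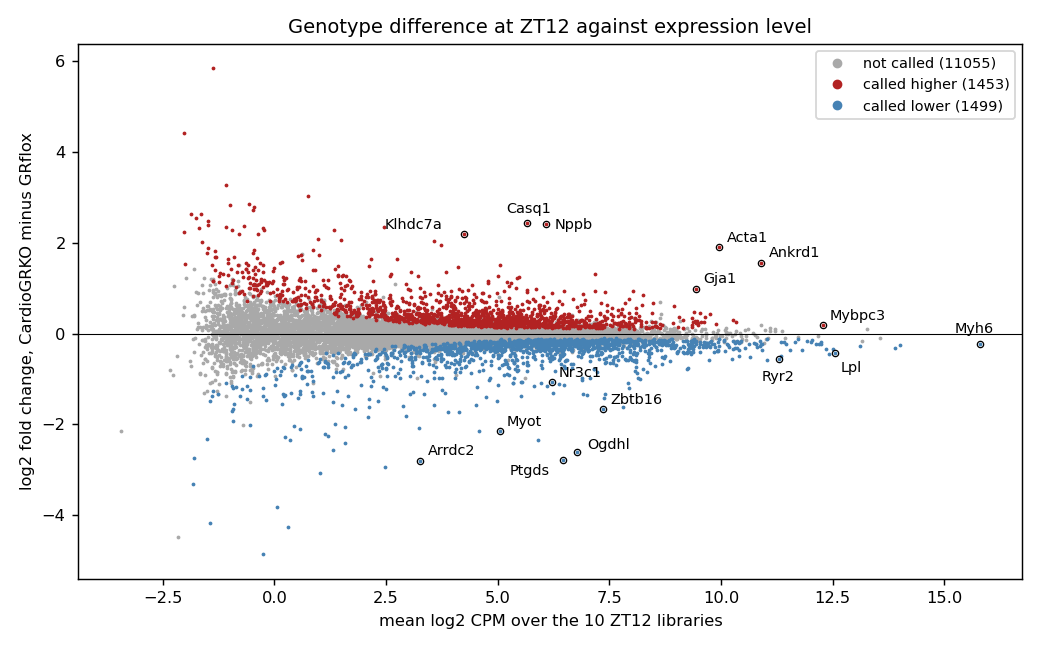
Log2 fold change of each tested gene at ZT12 (vertical axis) against its mean log2 CPM over the 10 libraries (horizontal axis), coloured by call. Falls outnumber rises on the right, where Myh6 and Lpl lie, while the 1453 called rises and 1499 called falls are nearly equal in number.

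Genes known to be induced by glucocorticoids fell where they were called, some of them deeply. Over all genes tested 10.7% were lower, and 7.22% had CardioGRKO below with no overlap. Of 34 known induced genes, all tested, 17 were lower and none was higher (median -0.46). Of these 17, 15 had no overlap between the groups. With library totals the same numbers were called, with a median of -0.37. Zbtb16, a zinc finger transcription factor (Entrez gene 235320, chromosome 9, 48651797 to 48836225), stood at 287, 259, 347, 298 and 310.4 CPM in the GRflox libraries and 98.9, 91.3, 51.2, 116 and 115 CPM in the CardioGRKO libraries. The CardioGRKO libraries lay far below the GRflox libraries, the third of them lowest (-1.67 ± 0.16, adjusted p = 6.54e-08). Arrdc2, an arrestin-domain protein (Entrez gene 70807, chromosome 8, 70835129 to 70839720), stood at 24.8, 21.8, 29.9, 25.6 and 24.4 CPM in the GRflox libraries and 2.87, 4.73, 2.84, 3.94 and 3.999 CPM in the CardioGRKO libraries, again with no overlap (-2.80 ± 0.25, adjusted p = 1.5e-08).

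Ptgds, which makes prostaglandin D2 (Entrez gene 19215, chromosome 2, 25466709 to 25470110), stood at 161, 134, 323, 340.2 and 260.2 CPM in the GRflox libraries and 40.5, 23.4, 40.04, 37.7 and 33.9 CPM in the CardioGRKO libraries. The GRflox libraries split into 134 to 161 CPM in replicates 1 and 2 and 260.2 to 340.2 CPM in the other 3, and all lay above the CardioGRKO libraries, which were closely grouped (-2.79 ± 0.25, adjusted p = 2.03e-08). Klf15, a regulator of amino acid and lipid use in muscle, fell 2.24-fold from 103 ± 10.7 to 46.4 ± 5.53 CPM. Plin4, a lipid droplet protein, fell from 437 ± 49.4 to 244 ± 21.8 CPM (-0.84 ± 0.08), and the forkhead factor Foxo3 from 104 ± 13.1 to 58.6 ± 3.15 CPM (-0.83 ± 0.07). In each of these 3 genes the 2 groups were apart. Lcn2, which codes for a secreted siderophore-binding protein, stood at 2.06 to 8.33 CPM in GRflox and 0.774 to 1.303 CPM in CardioGRKO (-2.22 ± 0.30), and the metallothionein gene Mt1 at 144 to 284 and 63.8 to 91 CPM (-1.33 ± 0.15).

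Other classical targets were not called. Sgk1, a kinase induced by corticosteroids, ranged over 61.6 to 84.7 CPM in GRflox and 52.3 to 71.8 CPM in CardioGRKO (-0.18 ± 0.13, adjusted p = 0.371). Tsc22d3, the leucine zipper protein GILZ, ranged over 119 to 144 CPM in GRflox and 82.3 to 144 CPM in CardioGRKO (-0.17 ± 0.14, adjusted p = 0.42). In both the groups overlapped widely. The ubiquitin ligase genes of muscle atrophy Fbxo32 (-0.15 ± 0.12) and Trim63 (-0.18 ± 0.11) did not pass either. Pdk4, which restrains pyruvate oxidation, stood at 275, 159, 383, 279 and 574 CPM in the GRflox libraries and 836, 376, 417, 478 and 581 CPM in the CardioGRKO libraries. It was highly variable in both groups and did not pass (0.69 ± 0.31, adjusted p = 0.125), though it did without replicate 5 of GRflox (0.97). Sgk1, Tsc22d3, Trim63 and Mt1 were chosen for mention after their values were seen.

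**Figure D2:**
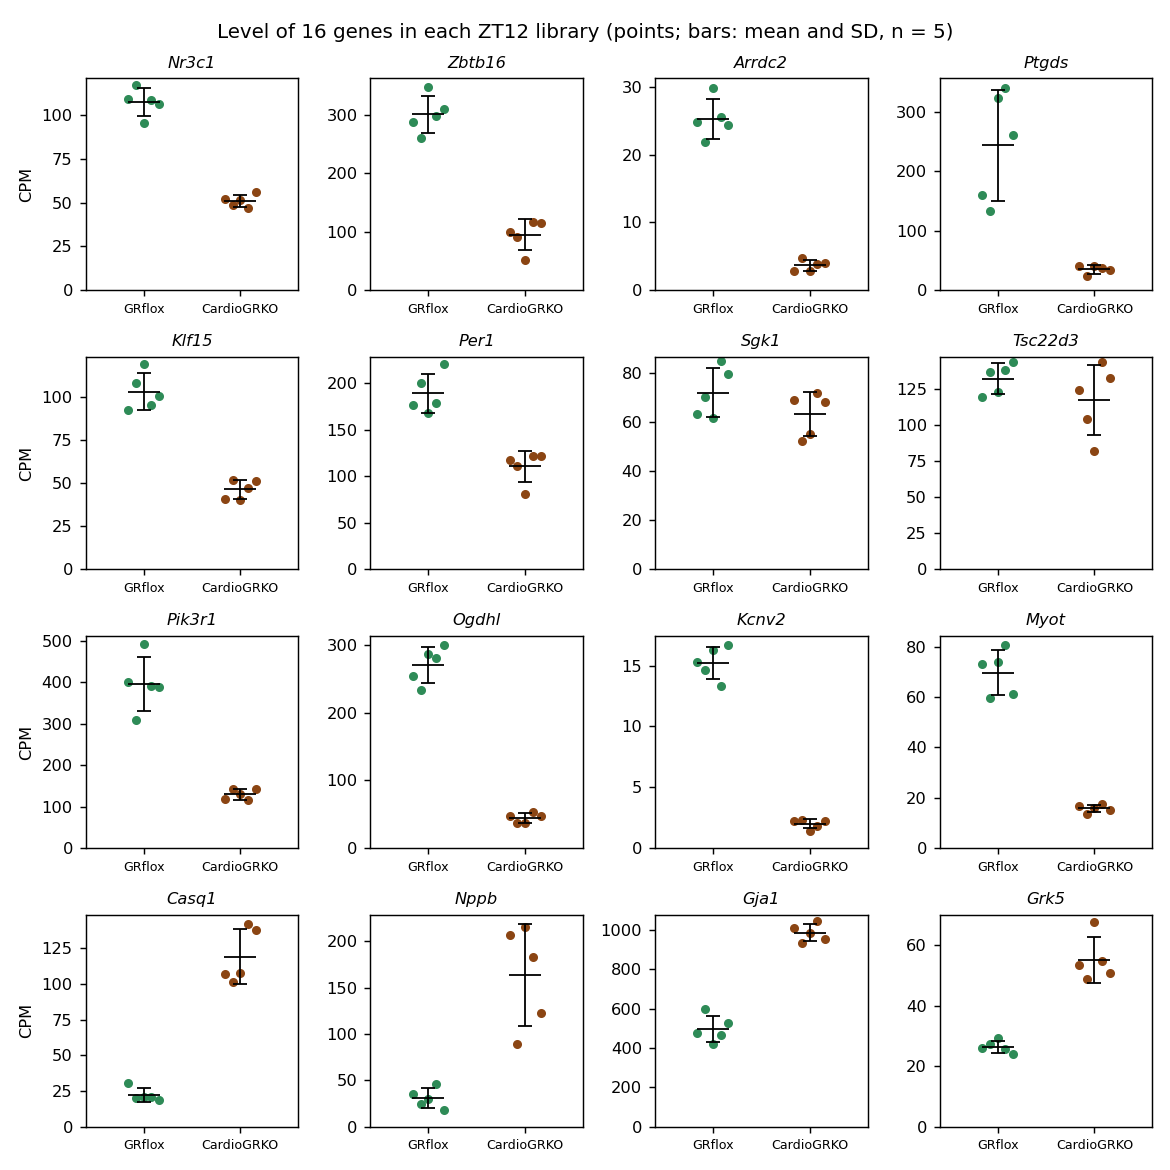
CPM of 16 genes (vertical axes, from 0) in each GRflox and CardioGRKO library at ZT12; points are libraries, bars the mean and SD of 5. Zbtb16, Arrdc2, Ptgds, Klf15 and Per1 are lower in every CardioGRKO library, Sgk1 and Tsc22d3 overlap, and Casq1, Nppb, Gja1 and Grk5 are higher in every CardioGRKO library.

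The receptor binds DNA as a dimer at a palindrome of 2 repeats, whose letters are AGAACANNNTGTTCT. RefSeq sequence (GRCm38.p6) of the 250 bases before the start was at hand for 11083 of the genes tested (14111 promoters). The 15-base palindrome, the same on both strands, was present in 1 of these genes, Sgk1. The 12 bases AGAACANNNTGT, searched on both strands and contained in the palindrome, were present in 37 genes (0.334%), in 6 of 1177 genes that fell (0.510%) and in none of 1154 that rose. Of these 6, Art3 (-1.19 ± 0.08) and Amy1 (-1.48 ± 0.16) fell at least 2-fold, both named after their values were seen. The 9-base centre ACANNNTGT, contained in both longer motifs, was present in 504 genes (4.55%), in 64 of those that fell (5.44%) and in 49 of those that rose (4.25%). It was present in 6 of 30 glucocorticoid-induced genes with a promoter, among them Lcn2 and Glul, which fell, and Sgk1 and Trim63, which were not called. To show what such matches look like, these are upstream stretches of 3 genes that fell and 1 that rose, 5′ to 3′ along the gene, with the 9-base match in capitals:
Lcn2: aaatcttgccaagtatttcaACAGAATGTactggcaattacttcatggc
Glul: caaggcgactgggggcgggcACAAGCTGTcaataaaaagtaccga
Pfkfb1: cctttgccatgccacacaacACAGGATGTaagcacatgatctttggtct
Grk5: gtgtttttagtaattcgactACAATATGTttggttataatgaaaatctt
The stretches lie at chr2:32387863-32387911, minus strand, first motif base 152 bases before the start of Lcn2; chr1:153899884-153899928, plus strand, first motif base 25 bases before the start of Glul; chrX:150594251-150594299, plus strand, first motif base 157 bases before the start of Pfkfb1; and chr19:60889565-60889613, plus strand, first motif base 164 bases before the start of Grk5. A match describes the letters only.

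Among 19 core clock genes, which drive daily rhythms through a loop of activators and repressors, 5 were lower and 2 higher, against 10.7% lower and 10.4% higher over all genes, so that the share of rises was that of all genes. The list's median was -0.11. Per1, a repressor that the receptor induces directly, stood at 177, 200.2, 168, 179 and 221 CPM in the GRflox libraries and 117, 111, 81.3, 121 and 122 CPM in the CardioGRKO libraries. Every CardioGRKO library lay below every GRflox library, and replicate 3 lay below the other 4 of its group (-0.77 ± 0.26, adjusted p = 0.0363). The call was lost without replicate 2 or 5 of GRflox or replicate 1, 2 or 3 of CardioGRKO and with DESeq2, and in these left-out sets the difference ran from -0.80 to -0.68. Ciart, a repressor of the activator pair, fell 2.97-fold, with 16.2 to 27.1 CPM in GRflox and 5.45 to 8.33 CPM in CardioGRKO (adjusted p = 4.11e-08). The output activator genes Dbp (-0.32 ± 0.10), Tef (-0.36 ± 0.07) and Hlf (-0.48 ± 0.11) fell, though Dbp lost the call with library totals and without replicate 2, 4 or 5 of GRflox or replicate 1 of CardioGRKO (-0.30 to -0.21). Bhlhe41, a repressor (0.47 ± 0.09), and Npas2, a partner of the activator Arntl (0.93 ± 0.20), rose. Arntl itself, low at this hour, ranged over 1.04 to 2.03 CPM in GRflox and 1.68 to 3.32 CPM in CardioGRKO and did not pass (0.57 ± 0.21, adjusted p = 0.0617), though it did with library totals, with DESeq2 and without replicate 2 or 5 of CardioGRKO (0.66 to 0.69). Clock (0.03 ± 0.06), Per3 (0.03 ± 0.10) and Per2 (-0.42 ± 0.20, adjusted p = 0.159) did not pass, although Per2 was lower in every CardioGRKO library and passed with the ZT12 libraries alone. The number of clock genes lower was 3 without replicate 2 or 5 of GRflox or replicate 1 of CardioGRKO, and with library totals 4 were lower and 4 higher.

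Regulators of heart metabolism and identity were mostly lower where they were called. Of 39 such factors 16 fell, against 10.7% of all genes, and 3 rose (median -0.15). With library totals 13 fell and 5 rose. Ppargc1a, the coactivator that drives mitochondrial genes, stood at 228, 244, 279, 226 and 229 CPM in the GRflox libraries and 157, 159, 148, 147 and 163 CPM in the CardioGRKO libraries. The groups did not overlap (-0.64 ± 0.09, adjusted p = 1.77e-05). The cardiac factors Gata4 and Gata6 went opposite ways: Gata4 rose from 186 ± 9.13 to 254 ± 26.2 CPM and Gata6 fell from 94.6 ± 2.18 to 73.3 ± 5.34 CPM.

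In the list of insulin signalling, growth and protein breakdown 13 of 36 genes fell, against 10.7% of all genes, and 2 rose (median -0.10). The counts were 8 lower and 6 higher with library totals. Pik3r1, a regulatory subunit of phosphoinositide 3-kinase, stood at 399.8, 309, 492, 391 and 389 CPM in the GRflox libraries and 118, 143, 131, 116 and 141 CPM in the CardioGRKO libraries. The groups were far apart (-1.62 ± 0.09, 3.06-fold lower, adjusted p = 5.17e-12). Akt1, a kinase downstream of it, fell little (-0.27 ± 0.04). Bnip3, a receptor for the removal of mitochondria, fell from 130.3 ± 16.5 to 81.98 ± 3.45 CPM (-0.67 ± 0.07), and Sesn1, a stress-induced inhibitor of growth signalling, from 166 ± 14.4 to 109 ± 5.69 CPM (-0.60 ± 0.06).

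In 3 lists of mitochondrial energy supply most genes fell with TMM scaling, though not all, and fewer did with library totals. For comparison, 10.7% of all genes were lower, and 724 of 2755 genes with a mean log2 CPM of at least 6. In respiratory complex I, the entry point of electrons from NADH, 24 of 35 tested genes were lower and none was higher (median -0.16). In complexes II to V 31 of 43 were lower and none higher (median -0.19), and in pyruvate oxidation and the citric acid cycle 25 of 30 were lower and 1 higher (median -0.21). With library totals the falls numbered 8, 19 and 16 in the 3 lists, with medians of -0.08, -0.11 and -0.12. Cardiomyocyte markers were lower beside them: 8 of 11 fell, and their summed CPM ran from 129100 to 133200 in GRflox and from 107400 to 121800 in CardioGRKO. Their part in these falls was not tested.

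Ndufs7, a complex I subunit, stood at 222, 246, 255, 257 and 233 CPM in the GRflox libraries and 169.5, 184, 169.6, 201 and 179 CPM in the CardioGRKO libraries, with no overlap (-0.43 ± 0.05). The complex IV subunit gene Cox7a1, a muscle isoform, stood at 880.2, 848, 782, 851 and 909 CPM in the GRflox libraries and 585, 655, 663, 659 and 656 CPM in the CardioGRKO libraries. Its groups were apart as well (-0.41 ± 0.06, adjusted p = 3.47e-05). Among further subunit genes Ndufs8 (-0.33 ± 0.04), Ndufb4 (-0.34 ± 0.06), Cox6a2 (-0.50 ± 0.06), Uqcrc1 (-0.37 ± 0.04), Sdhb (-0.27 ± 0.04) and Atp5f1 (-0.26 ± 0.03) had no overlap between the groups. Slc25a4, the carrier that exchanges ADP and ATP across the inner membrane, fell from 6419 ± 189 to 4722 ± 158 CPM (-0.44 ± 0.04, adjusted p = 9.52e-09).

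One member of the citric acid cycle list fell far more than the rest. Ogdhl, a relative of the oxoglutarate dehydrogenase subunit (Entrez gene 239017, chromosome 14, 32321982 to 32348151), stood at 254, 235, 287, 281 and 301 CPM in the GRflox libraries and 47.7, 36.4, 36.6, 54 and 46.6 CPM in the CardioGRKO libraries. Its level in CardioGRKO was 6.12-fold lower, with the smallest adjusted p of the genes named here (-2.61 ± 0.10, adjusted p = 1.98e-14). Got1, the cytosolic aspartate aminotransferase of the malate-aspartate shuttle, fell from 799 ± 48.99 to 476 ± 27.3 CPM (-0.75 ± 0.05). Idh3g, a subunit of an isocitrate dehydrogenase of the cycle itself, fell without overlap (-0.41 ± 0.05).

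Genes of fatty acid and amino acid use mostly fell with TMM scaling. Of all genes 10.7% were lower, and of 2755 genes with a mean log2 CPM of at least 6, 724 were. In the list of fatty acid uptake, oxidation and storage 30 of 42 genes fell and 2 rose (median -0.29), and in branched-chain amino acids and ketones 20 of 24 fell and none rose (median -0.27). With library totals 21 fell and 3 rose in the first and 14 fell in the second, and without replicate 5 of GRflox 4 genes of the first rose. Lpl, which releases fatty acids from blood lipids, fell from 7000.2 ± 135 to 5241 ± 437 CPM. Eci1 (-0.42 ± 0.05) and Eci2 (-0.42 ± 0.05), isomerases for unsaturated fatty acids, and Lpin1, a phosphatase of triglyceride synthesis (-0.59 ± 0.06), fell with no overlap. Fabp3, the fatty acid binding protein of heart muscle, was at 4699 ± 202 and 4528 ± 194 CPM and did not pass (adjusted p = 0.464). Ucp2, an inner membrane carrier, rose against the list (92.1 to 114 CPM in GRflox, 154 to 237 CPM in CardioGRKO, a difference of 0.94 ± 0.10, adjusted p = 1.79e-07).

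Bckdhb, a subunit of the branched-chain keto acid dehydrogenase, stood at 47.9, 47.3, 45.8, 42.01 and 47.7 CPM in the GRflox libraries and 28.6, 32.4, 25.9, 29.7 and 29.2 CPM in the CardioGRKO libraries. The groups were apart (-0.66 ± 0.07, adjusted p = 8.15e-08). Aldh6a1, of valine breakdown, fell from 314 ± 18.9 to 211 ± 23.5 CPM, and Oxct1, of ketone use, from 1973 ± 102 to 1616 ± 58.1 CPM. In the list of proline and glutamine 4 of 16 genes fell and 4 rose (median 0.02). The rises numbered 2 without replicate 3 or 5 of GRflox or replicate 3 or 5 of CardioGRKO. Prodh, the first enzyme of proline breakdown, stood at 39.2, 42.3, 53.4, 39.1 and 41.3 CPM in the GRflox libraries and 15.5, 18.8, 13.6, 17.1 and 17.1 CPM in the CardioGRKO libraries, 2.64-fold lower in CardioGRKO (adjusted p = 9.33e-10). Oat, which makes a proline precursor from ornithine, fell (-0.38 ± 0.04), as did Glul, glutamine synthetase (-0.39 ± 0.08). The glutamine transporter gene Slc38a1 rose from 24.8 ± 3.71 to 54.9 ± 4.55 CPM (1.14 ± 0.09).

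Glucose genes changed less evenly: 12 of 35 fell and 3 rose. The median was -0.06 and turned to 0.03 with library totals, when 9 fell and 6 rose. Pfkfb1, which makes a regulatory fructose bisphosphate, stood at 15, 16.4, 20.3, 21.3 and 24.7 CPM in the GRflox libraries and 3.46, 7.56, 3.68, 3.64 and 5.03 CPM in the CardioGRKO libraries. The groups were apart, with replicate 2 the highest of CardioGRKO (-2.08 ± 0.21, adjusted p = 1.03e-07). Ppp1r3a, which targets a phosphatase to glycogen (-0.55 ± 0.07), Gys1, glycogen synthase of muscle (-0.41 ± 0.07), and Ldhb, the lactate dehydrogenase subunit of the heart (-0.24 ± 0.03), fell. Gapdh, the abundant glycolytic enzyme, did not pass (-0.09 ± 0.06, adjusted p = 0.371).

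**Figure D3:**
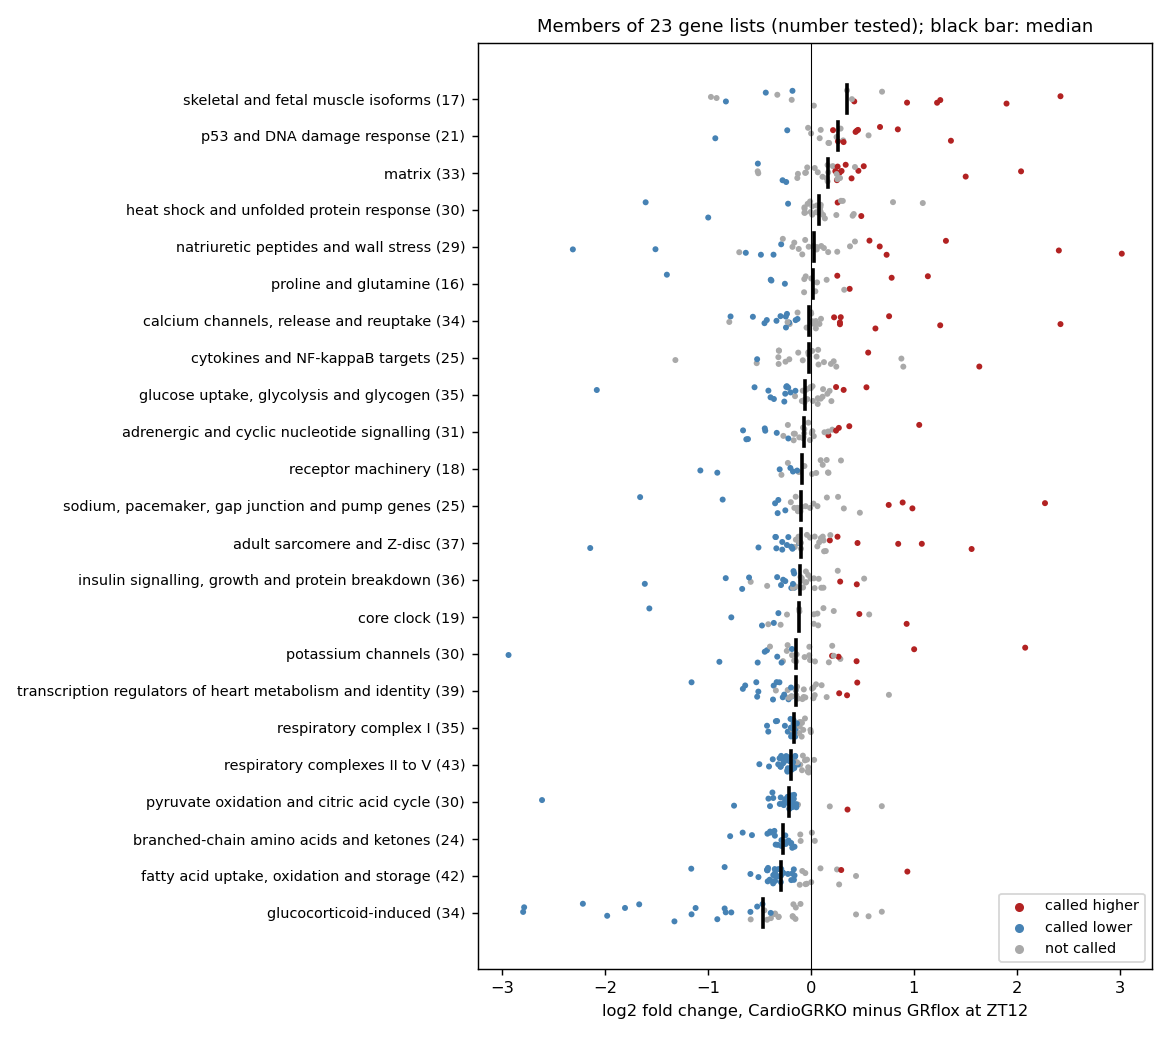
Log2 fold change at ZT12 (horizontal axis) of each tested member of 23 lists (rows, ordered by median), coloured by call, with the median as a black bar. The glucocorticoid-induced list has the lowest median (-0.46) and a wide spread, most members of the energy lists lie in a narrow band below 0, and the skeletal and fetal muscle isoforms have the highest median (0.35).

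Potassium channel genes, which set repolarization, were called in both directions: 8 of 30 fell and 5 rose (median -0.14). Kcnv2, a modifier subunit of voltage-gated channels, stood at 15.3, 14.6, 16.2, 13.3 and 16.7 CPM in the GRflox libraries and 2.24, 2.32, 1.379, 1.84 and 2.24 CPM in the CardioGRKO libraries. Every CardioGRKO library lay far below every GRflox library (-2.94 ± 0.17, 7.67-fold lower). The subunits of the channel opened by acetylcholine moved apart, with Kcnj3 falling from 50.7 ± 2.37 to 27.4 ± 4.05 CPM and Kcnj5 rising from 134 ± 5.61 to 182 ± 11.7 CPM. Kcnj12, an inward rectifier (-0.52 ± 0.07), and Kcna7 (-0.45 ± 0.07) fell. Kcnj14, another inward rectifier, rose (0.705 to 1.297 CPM in GRflox, 2.41 to 4.79 CPM in CardioGRKO, a difference of 2.08 ± 0.19).

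In the list of sodium channels, pacemaker channels, gap junctions and pumps 6 of 25 fell and 4 rose (median -0.09), and 4 fell and 8 rose with library totals. Gja1, the main connexin of ventricular gap junctions (Entrez gene 14609, chromosome 10, 56377300 to 56390419), stood at 475, 598, 422, 467 and 526 CPM in the GRflox libraries and 1011, 934, 984, 1044 and 953 CPM in the CardioGRKO libraries. Every CardioGRKO library lay above every GRflox library (0.99 ± 0.06, 1.98-fold higher, adjusted p = 1.31e-10). Scn4b, a beta subunit of the sodium channel, rose from 80.2 ± 12.3 to 135 ± 10.9 CPM. The pacemaker channel gene Hcn4 fell (-0.86 ± 0.10). Slc9a3, a sodium-proton exchanger, rose (0.628 to 1.501 CPM in GRflox, 3.21 to 7.78 CPM in CardioGRKO, a difference of 2.27 ± 0.31).

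Calcium genes also divided, with 12 of 34 lower and 8 higher. The median was -0.02 and turned to 0.06 with library totals, when 8 were lower and 9 higher. Casq1, the skeletal muscle isoform of calsequestrin, which stores calcium in the sarcoplasmic reticulum (Entrez gene 12372, chromosome 1, 172209894 to 172219895), stood at 30.4, 20.3, 20.9, 20.7 and 18.4 CPM in the GRflox libraries and 107, 102, 108, 142 and 137 CPM in the CardioGRKO libraries. It was 5.37-fold higher, with no overlap (adjusted p = 5.52e-12). Ryr2, the release channel, stood at 2975, 2902, 3123, 3129 and 3276 CPM in the GRflox libraries and 1971, 2286, 2045, 2036 and 2078 CPM in the CardioGRKO libraries, lower in every CardioGRKO library (-0.56 ± 0.06, adjusted p = 1.48e-07). Its partners Trdn (-0.43 ± 0.06) and Jph1 (-0.78 ± 0.09) fell too, as did Atp2a2, the pump that refills the store (-0.24 ± 0.05). The T-type channel gene Cacna1h rose from 20.8 ± 1.895 to 49.3 ± 5.899 CPM (1.26 ± 0.10) and Cacnb1, a channel beta subunit of skeletal muscle, from 11.1 ± 0.949 to 18.7 ± 1.302 CPM (0.76 ± 0.10).

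More isoforms typical of skeletal or fetal muscle rose than fell. Of 17 tested genes 6 were higher and 3 lower (median 0.35), and 8 further members were too low to test. With library totals 7 were higher and 1 lower. Acta1, the skeletal alpha-actin, stood at 466, 282, 756, 574 and 729 CPM in the GRflox libraries and 3002, 744, 2802, 2401 and 1526 CPM in the CardioGRKO libraries. The spread was wide, from 744 to 3002 CPM among CardioGRKO libraries, and replicate 2 lay inside the GRflox range (1.90 ± 0.30, adjusted p = 4.59e-05). Mybpc2, the fast myosin-binding protein C, rose from 28.3 ± 3.47 to 66.1 ± 9.798 CPM. Atp2a1, the pump of fast skeletal muscle (1.26 ± 0.18), and the ancient myosin gene Myh7b (0.42 ± 0.10) rose, and the slow and fetal myosin gene Myh7 did not pass (0.35 ± 0.19). Markers of skeletal muscle fibres were near 0 in both groups, with a summed level of 0.718 to 1.63 CPM in GRflox and 1.34 to 2.503 CPM in CardioGRKO, and 7 of 9 were too low to test, with at most 7 counts in a ZT12 library. Of the 2 tested, Mylpf, a fast muscle myosin light chain, rose with no overlap from this low level (0.302 to 0.837 CPM in GRflox, 0.869 to 1.59 CPM in CardioGRKO, a difference of 1.11 ± 0.31), and its part beside the isoforms was not tested. Acta2, the actin of smooth muscle and fetal heart, rose from 193 ± 11.4 to 368 ± 102 CPM, while the other 6 smooth muscle markers did not pass and the list summed to 688 to 787.9 CPM in GRflox and 696.1 to 967.2 CPM in CardioGRKO.

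Of 37 adult sarcomere and Z-disc genes 13 fell and 6 rose (median -0.10). This balance turned with library totals, when 8 were lower and 11 higher (median -0.01). Myot, the Z-disc protein myotilin, stood at 73.1, 59.6, 73.8, 80.8 and 61.3 CPM in the GRflox libraries and 16.6, 13.5, 15.9, 17.5 and 14.97 CPM in the CardioGRKO libraries, with the groups far apart (-2.15 ± 0.11, adjusted p = 5.17e-12). Ankrd1, a stress-induced partner of titin, stood at 1125, 1091, 1012, 1451 and 1017 CPM in the GRflox libraries and 4027, 2166, 4084, 3769.8 and 2755 CPM in the CardioGRKO libraries, higher in every CardioGRKO library (1.56 ± 0.21). Its relative Ankrd23 rose too (0.85 ± 0.13). The most abundant transcript, Myh6, the alpha myosin heavy chain whose promoter drives the Cre, fell from 61066 ± 898 to 52421 ± 3450.0 CPM (-0.22 ± 0.04). The thin filament genes Tnni3 (-0.34 ± 0.04) and Tnnt2 (-0.28 ± 0.05), the oxygen carrier gene Mb (-0.32 ± 0.04) and the titin cap gene Tcap (-0.51 ± 0.09) fell. Mybpc3, the cardiac myosin-binding protein C, rose (0.18 ± 0.05), a call lost without replicate 4 of CardioGRKO (0.15), and Actc1, the cardiac actin, did not pass (0.10 ± 0.04) except with library totals and without replicate 5 of CardioGRKO. Ttn, titin, fell with an adjusted p of 0.0421 (-0.34 ± 0.12). It lost the call with library totals, with DESeq2 and without replicate 3, 4 or 5 of GRflox or replicate 1, 3 or 4 of CardioGRKO (-0.35 to -0.23).

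Natriuretic peptides and wall stress genes were called in both directions, with 6 of 29 higher and 6 lower (median 0.03). With library totals 9 were higher and 6 lower (median 0.12). Nppb, the B-type peptide released by a stretched ventricle (Entrez gene 18158, chromosome 4, 147985786 to 147987205), stood at 35.6, 24.8, 29.9, 45.97 and 18.3 CPM in the GRflox libraries and 206, 88.9, 215, 183 and 123 CPM in the CardioGRKO libraries. The groups did not overlap, and replicate 2 was the lowest of CardioGRKO (2.41 ± 0.25, 5.31-fold higher, adjusted p = 1.2e-07). Nppa, the A-type peptide, stood at 113, 79.3, 95.3, 118 and 75.4 CPM in the GRflox libraries and 349, 117, 279, 253 and 193 CPM in the CardioGRKO libraries, with overlap through the same library (1.31 ± 0.30, adjusted p = 0.00272). Of the other atrial markers 5 were tested and none was called. Their differences were all below 0, from -0.97 to -0.18, opposite in sign to that of Nppa. The summed level of the list, Nppa included, was 98.6 to 313.9 CPM in GRflox and 154 to 467 CPM in CardioGRKO. The part of atrial tissue in the level of Nppa was not tested. Corin, the protease that matures Nppa, fell from 343 ± 15.9 to 221 ± 34.1 CPM (-0.63 ± 0.08), and Furin, a proprotein convertase that can process Nppb, from 215 ± 29.7 to 154 ± 15.9 CPM (-0.49 ± 0.08). Gdf15, a stress cytokine, rose (0.403 to 0.837 CPM in GRflox, 1.09 to 7.13 CPM in CardioGRKO, a difference of 3.02 ± 0.50), and Agt, angiotensinogen, fell (3.22 to 6.24 CPM in GRflox, 0.9196 to 1.85 CPM in CardioGRKO, a difference of -1.51 ± 0.20).

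The rises of stress and isoform genes varied widely between CardioGRKO libraries. Replicate 2 was the lowest of the 5 for 5 of the 6 wall stress genes that rose, for 4 of the 6 isoforms and for 5 of the 6 sarcomere genes. It was also the lowest for 7 of the 11 matrix genes that rose and for 3 of the 9 p53 genes. In Nppb it stood at 88.9 CPM against 123 to 215 CPM in the rest, in Gdf15 at 1.09 against 3.999 to 7.13 CPM, and in Ankrd1 at 2166 against 2755 to 4084 CPM. This library was singled out after its values were seen. Without it 2837 genes were called, 2615 of them shared with the 2952, and of the genes named here as risen or fallen only Per1 lost the call.

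Adrenergic and cyclic nucleotide signalling, which sets heart rate and force, had 7 of 31 genes lower and 5 higher. The median was -0.07 and turned to 0.01 with library totals, when 5 were lower and 8 higher. Grk5, a kinase that desensitizes beta-adrenergic receptors, stood at 25.9, 27.3, 29.3, 25.6 and 24.1 CPM in the GRflox libraries and 53.3, 48.6, 67.7, 54.6 and 50.7 CPM in the CardioGRKO libraries, higher in every CardioGRKO library (1.05 ± 0.08, adjusted p = 1.01e-09). Prkar1a, a regulatory subunit of protein kinase A, rose from 473 ± 21.5 to 612 ± 64.5 CPM. Adcy6, a main adenylyl cyclase of cardiomyocytes, fell from 392 ± 19 to 288 ± 18.6 CPM (-0.45 ± 0.05). The receptor genes Adora1 (-0.66 ± 0.09), Adra1a (-0.63 ± 0.11) and Chrm2 (-0.44 ± 0.09) fell as well.

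Of 21 tested p53 and DNA damage genes 9 were higher, against 10.4% of all genes, and 2 lower (median 0.26). With library totals 14 were higher and none lower. The count of lower genes was 1 without replicate 2, 3 or 5 of GRflox or replicate 1, 2, 3 or 4 of CardioGRKO. Phlda3, a p53 target that restrains Akt, stood at 9.41, 8.703, 9.24, 12.3 and 5.88 CPM in the GRflox libraries and 23.6, 17.4, 29.2, 25.9 and 20.4 CPM in the CardioGRKO libraries, with no overlap (1.36 ± 0.15, adjusted p = 4.16e-07). Eda2r, a p53-induced receptor (0.84 ± 0.11), the growth arrest gene Gadd45a (0.67 ± 0.10) and the junction gene Perp (0.26 ± 0.05) rose. Differences over the list ran from -0.93 to 1.36. Its summed level overlapped, at 1585 to 1810 CPM in GRflox and 1570 to 1866 CPM in CardioGRKO. Mdm2, the p53 target that degrades p53, did not pass (0.17 ± 0.08, adjusted p = 0.119) except with library totals (0.26).

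Of 33 matrix genes 11 rose, against 10.4% of all genes, and 3 fell (median 0.17). With library totals 17 rose and 2 fell. Ndnf, a secreted survival factor, stood at 6.596, 5.94, 5.59, 6.05 and 4.898 CPM in the GRflox libraries and 21.9, 28.4, 20.5, 24.7 and 24.8 CPM in the CardioGRKO libraries, with no overlap (2.04 ± 0.10, adjusted p = 2.98e-12). Cpxm2, a carboxypeptidase-like matrix protein, rose (15.3 to 25.1 CPM in GRflox, 33.2 to 79.3 CPM in CardioGRKO). The collagen gene Col8a1 (0.51 ± 0.12) and the growth factor gene Tgfb3 (0.26 ± 0.06) rose less. Fibroblast markers gave 1 rise and 1 fall among 10, the share of all genes in each direction, and their summed level overlapped (1153 to 1406 CPM in GRflox and 1218 to 1390 CPM in CardioGRKO).

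Few inflammatory and protein folding genes were called. Of 25 cytokines and NF-kappaB targets, which the receptor can repress, 2 were higher and 1 lower (12.0% called against 21.1% of all genes). Cx3cl1, a membrane-bound chemokine, rose (10.3 to 13.04 CPM in GRflox, 13.9 to 21.5 CPM in CardioGRKO), and Socs3, an inhibitor of cytokine signalling, fell (-0.52 ± 0.15). None of 10 macrophage markers was called. Of 30 heat shock and unfolded protein response genes 2 rose and 3 fell (median 0.08), 16.7% called and near the share of all genes, with 4 rises and 2 falls when library totals were used and 1 without replicate 2 or 5 of GRflox or replicate 3 or 4 of CardioGRKO. Herpud1, of protein quality control in the endoplasmic reticulum, stood at 373, 427, 469, 361 and 448 CPM in the GRflox libraries and 196, 230.4, 186, 210.3 and 218 CPM in the CardioGRKO libraries, with no overlap (-0.999 ± 0.08, adjusted p = 1.98e-09). Chac1, a glutathione-degrading enzyme, fell (5.397 to 10 CPM in GRflox, 1.78 to 3.999 CPM in CardioGRKO). Ddit3, a transcription factor of the same stress response, rose (0.49 ± 0.16, adjusted p = 0.0332, lost in 5 alternatives), and so did Hspb8 (0.26 ± 0.07).

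Several of the largest changes lay outside these lists. The largest fall within the naming rule was that of Acsm5, an acyl-CoA synthetase, at 3.68 to 10.6 CPM in GRflox and 0.401 to 0.865 CPM in CardioGRKO (-3.06 ± 0.29). Csdc2, an RNA-binding protein, fell from 138 ± 32.7 to 26.9 ± 5.1 CPM (-2.35 ± 0.13) and Phyhd1, a dioxygenase, from 50.3 ± 3.43 to 11.4 ± 2.09 CPM (-2.14 ± 0.11). Ankrd63 (-2.56 ± 0.27) and the cyclic nucleotide-gated channel gene Cngb3 (-2.05 ± 0.19) were also among the 12 largest falls. Blk, a kinase best known from B cells, rose (1.59 to 2.93 CPM in GRflox, 9.39 to 13.6 CPM in CardioGRKO, a difference of 2.35 ± 0.15), while none of 5 tested B cell markers was called and their summed level was 0.883 to 2.13 CPM in GRflox and 0.869 to 2.64 CPM in CardioGRKO. Klhdc7a, a kelch-domain protein, stood at 8.26, 9.46, 10.2, 9.04 and 7.31 CPM in the GRflox libraries and 36.9, 38.1, 48.9, 41.6 and 38.8 CPM in the CardioGRKO libraries, far apart (2.19 ± 0.12, adjusted p = 7.45e-12). The lipid-binding gene Sec14l5 (2.06 ± 0.17), the galactosyltransferase gene B3galt2 (1.94 ± 0.14), the glutamate receptor subunit gene Grin2c (1.72 ± 0.22), Meig1 (1.65 ± 0.13) and the glycosyltransferase gene Gcnt1 (1.64 ± 0.19) rose with no overlap.

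Among markers of the wall's other cells, those of endothelium were called most often. Of 12 endothelial markers 5 were lower, against 10.7% of all genes, and none was higher. Pecam1 (-0.22 ± 0.04), Cdh5 (-0.22 ± 0.04) and Esam (-0.29 ± 0.05) were among the 5. The summed level of the 12 was 1747 to 1955 CPM in GRflox and 1510 to 1746 CPM in CardioGRKO. Of 8 pericyte markers 2 were lower (6 without replicate 2 of CardioGRKO and none without replicate 2 of GRflox), with a summed level of 1139 to 1386 CPM in GRflox and 999.1 to 1269 CPM in CardioGRKO. Of 3 tested adipocyte markers 1 was lower, and none without replicate 2 of GRflox. Cardiomyocyte markers were by far the most abundant of the lists. None of the tested T cell (1 of 7), neutrophil (2 of 6), Schwann cell (6 of 7), mesothelial (4 of 6) and red blood cell (1 of 5) markers was called.

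Whether the genotype difference at lights off was unlike that at lights on was asked with the interaction, the ZT12 difference minus the ZT0 difference. Of all genes 26 (0.186%) were called, 17 with a lower (0.121%) and 9 with a higher difference (0.0643%) at ZT12. DESeq2 called 69. The values at ZT0 include replicate 1 of CardioGRKO, the shallowest library of the series (5854462 counted reads), whose file header carries another prefix number than those of the other 19. Without it 24 genes were called, 19 with a lower and 5 with a higher difference, and Arntl, Klhdc8a, Leo1 and Zfp646 were not among them. Without replicate 4 of GRflox at ZT12 17 were called and without replicate 1 of CardioGRKO at ZT12 16. The 26 included 3 glucocorticoid-induced genes, Zbtb16, Foxo3 and Glul. Zbtb16 fell at ZT12 (-1.67 ± 0.16) and did not pass at ZT0 (-0.23 ± 0.17), with an interaction of -1.44 ± 0.24 (edgeR, adjusted p = 0.00533). Foxo3 differed by -0.83 ± 0.07 at ZT12 and -0.14 ± 0.07 at ZT0 (interaction adjusted p = 0.00126). Glul was lower at ZT12 and higher at ZT0 (0.25 ± 0.08, interaction adjusted p = 0.00608).

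Of the clock genes 4 were among the 26. Dbp fell at ZT12 (-0.32 ± 0.10) and rose at ZT0 (1.04 ± 0.13), with an interaction of -1.36 ± 0.16. Per3 rose at ZT0 (0.89 ± 0.12) and did not pass at ZT12, and its interaction was -0.86 ± 0.16. Tef showed -0.36 ± 0.07 and 0.22 ± 0.08 at the 2 times. Arntl stood at 0.57 ± 0.21 at ZT12 and -0.62 ± 0.12 at ZT0, and its interaction of 1.18 ± 0.24 (adjusted p = 0.0397) was lost in 9 of the 11 sets with 1 library left out. Per1 showed -0.77 ± 0.26 at ZT12 and -0.56 ± 0.28 at ZT0, and its interaction did not pass (adjusted p = 0.981).

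Among the rest, with the interaction in parentheses, Pik3r1 fell at both times and more at ZT12 (interaction -0.94 ± 0.12, adjusted p = 0.000432). Gja1 rose at both times and more at ZT12 (0.31 ± 0.06 at ZT0, interaction 0.67 ± 0.09). Herpud1 fell more at ZT12 (interaction -0.73 ± 0.11), as did Ccrn4l, a deadenylase with a daily rhythm (-0.70 ± 0.13). Rhobtb1 (-0.89 ± 0.17), Rnf144b (-0.85 ± 0.14), Sesn1 (-0.57 ± 0.09) and Adora1 (-0.65 ± 0.13) fell at ZT12 and were not called at ZT0. Fbxw7, a ubiquitin ligase subunit (0.49 ± 0.08), Tnfaip2 (0.56 ± 0.10) and Leo1 (0.47 ± 0.10) rose at ZT12 and were not called at ZT0, whereas Klhdc8a rose at both times (0.67 ± 0.14). Akap1, an anchor of protein kinase A at mitochondria (0.33 ± 0.06), and Zfp646 (0.29 ± 0.06) were lower at ZT0 and not called at ZT12. Of these calls of the interaction, those of Rhobtb1, Ccrn4l, Adora1, Klhdc8a, Leo1, Akap1 and Zfp646 were each lost under at least 1 alternative. For other large ZT12 differences the interaction did not pass, at -1.31 ± 0.37 for Arrdc2 (adjusted p = 0.262), -0.77 ± 0.17 for Klf15 (adjusted p = 0.0657), -0.15 ± 0.14 for Ogdhl (adjusted p = 0.944), 0.06 ± 0.18 for Casq1 (adjusted p = 0.99) and 0.87 ± 0.33 for Nppb (adjusted p = 0.612).

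**Figure D4:**
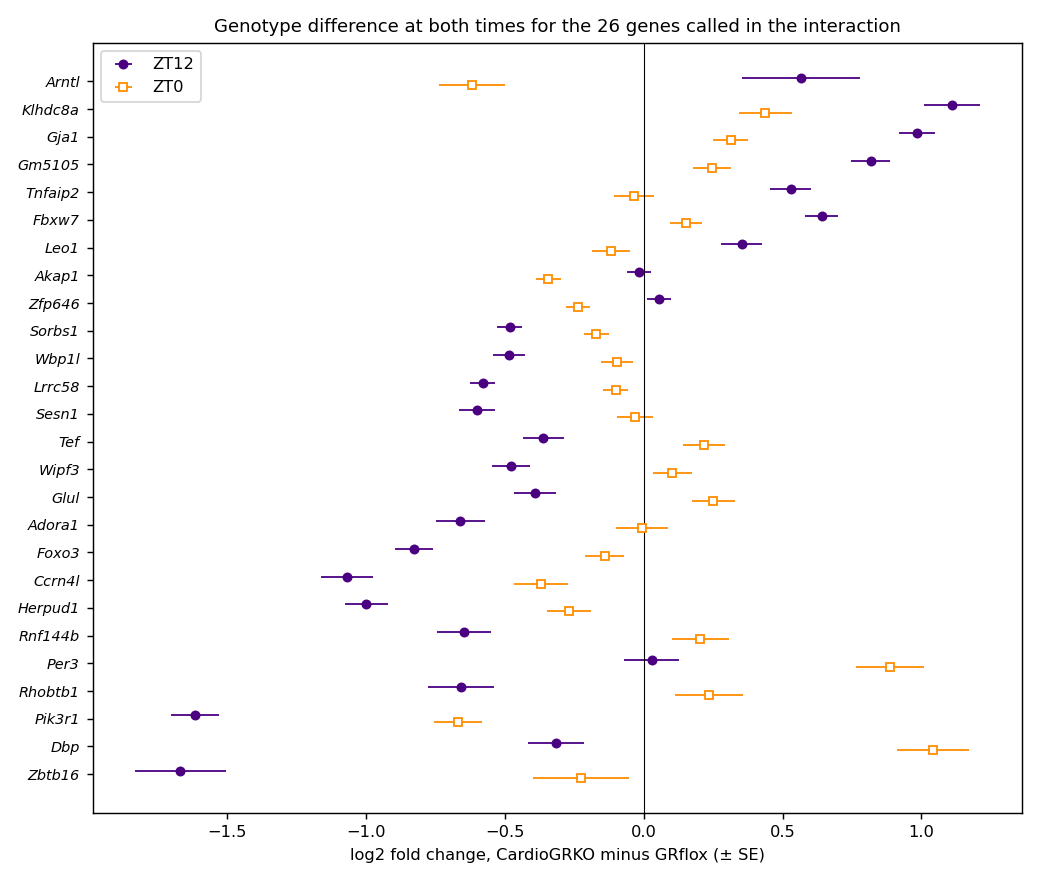
Genotype difference (log2 fold change ± SE, horizontal axis) at ZT12 (circles) and ZT0 (squares) for the 26 genes called in the interaction, ordered by it. Zbtb16 and Pik3r1 lie far lower at ZT12, Dbp changes side, and Gja1 lies higher at ZT12.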

How the data were processed

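Read counts per gene from the left ventricular free wall were analysed. STAR 2.5.1, Subread 1.5.1 with featureCounts, DESeq2 1.38.3 and the mouse build mm10 are listed in the submitters' processing notes, without their roles. The deposited values are whole-number counts, not normalized. Strand setting, use of multi-mapping reads and annotation release were not given in the sources used here. Overlapping genes and close copies may therefore share or lose reads. Lines of 1 gene were summed by Entrez identifier (24059 genes, 23973 matched to RefSeq).

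Genes were kept by filterByExpr (minimum count 10, minimum total 15) and tested with edgeR 4.0.16 in R 4.3.3, with 1 fit of group means to all 20 libraries, TMM scaling and Benjamini-Hochberg adjustment over 14007 genes (threshold 0.05). A standard error is the absolute log2 change divided by the root of the F statistic. Mean log2 CPM took a prior of 2 counts. DESeq2 1.42.0, other scalings, filters and sample sets were alternatives. In simulated counts 81.8% of 99 genes changed 1.5-fold and 91.0% of 100 changed 2-fold were called, with 8 of 13715 unchanged genes. Only these few genes were changed, up and down about equally and at any level, and dispersion followed level alone. The data had far more calls, so these rates may not carry over to them. No 2 libraries of a group were the same within sampling noise, with a chi-square per gene of 5.82 to 20.96.

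The members and gene lists were chosen with earlier results of these data known. Named were Nr3c1, the 12 largest rises and 12 largest falls (called, mean log2 CPM at least 1, no overlap, no provisional name), the 10 called genes of highest CPM, up to 6 members per list by smallest p and up to 2 uncalled members by highest CPM, 8 rises and 8 falls of the interaction, and the clock and receptor lists. The text uses a part of these, and some genes that the rule names are not reported here. Genes named outside this rule are marked where they appear. Plots used Python 3.11.15 and matplotlib 3.10.9.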

Additional observations from a re-analysis of the deposited data

Results flagged for a closer look

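In groups of 5 libraries a highest or lowest library was set apart by Dixon's criterion in 24 of 322 groups examined (161 genes in both genotypes), against 16.1 by chance at 1 in 20. The values below are CPM.

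In CardioGRKO, replicate 3 was the lone value in Plin4 (206.8), Per1 (81.35), Per2 (62.11) and Perp (150.2). Replicate 5 was so in Myh7 (674.7), Cngb3 (2.424) and Sec14l5 (6.969), replicate 2 in Kcnj14 (2.412), replicate 4 in Mb (14730) and replicate 1 in Cox7a1 (585.1). In GRflox, replicate 5 was the lone value in Arntl (1.045), Kcnj3 (54.86), Ttn (7549) and Ndufb4 (43.62). Replicate 3 was so in Glul (1263), Furin (267.2) and Prodh (53.44), replicate 4 in Ankrd1 (1451), Ldhb (2196) and Sesn1 (141.0), replicate 1 in Casq1 (30.41) and Uqcrc1 (1465), and replicate 2 in Myh6 (62650) and Ccrn4l (56.2). Of these genes Per1 and Ttn lost the call without the library set apart.

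The genotype difference at ZT12 minus that at ZT0 passed edgeR's interaction test for 21 genes named in the report. On the log2 scale it was lower at ZT12 for Zbtb16 (-1.44), Dbp (-1.36), Pik3r1 (-0.94), Rhobtb1 (-0.89), Per3 (-0.86), Rnf144b (-0.85), Herpud1 (-0.73), Ccrn4l (-0.70), Foxo3 (-0.69), Adora1 (-0.65), Glul (-0.64), Tef (-0.58) and Sesn1 (-0.57). It was higher for Arntl (1.18), Gja1 (0.67), Klhdc8a (0.67), Tnfaip2 (0.56), Fbxw7 (0.49), Leo1 (0.47), Akap1 (0.33) and Zfp646 (0.29).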

How the results depend on the processing

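No named gene changed direction under any alternative. Of 160 named genes beside Nr3c1, 140 were called at ZT12 and 133 of them kept the call under every alternative. The 7 that lost it at least once were Ncoa3, Ncor1, Per1, Dbp, Mybpc3, Ttn and Ddit3. A further 7 that were not called gained a call at least once: Actc1, Arntl, Hsd11b1, Mdm2, Pdk4, Per2 and Zfp646. The 2952 calls became 2498 (without GRflox replicate 3) to 2872 with 1 ZT12 library left out, 2623 with the ZT12 libraries alone, 2667 with counts thinned to the shallowest ZT12 library, 2753 without a filter and 3094 with DESeq2.

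Library totals in place of TMM gave 3088 higher and 853 lower genes, with 2306 of all calls shared. Members called higher then numbered 1 in receptor machinery, 4 in the clock, 8 in sodium and gap junction genes, 11 in the sarcomere, 6 in glucose, 5 in regulators, 6 in insulin signalling, 8 in adrenergic signalling, 14 in p53, 17 in the matrix and 4 in heat shock. Members called lower numbered 3 in receptor machinery, 1 in skeletal isoforms, 8 in the sarcomere, 8 in complex I, 19 in complexes II to V, 16 in the citric acid cycle, 8 in insulin signalling and 0 in p53. The interaction then had 19 genes with a higher difference.

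DESeq2 called 69 genes in the interaction, 26 higher and 43 lower, 1 lower p53 gene and 2 lower cytokine genes. Thinning gave 5 genes higher in the interaction, 4 insulin genes higher and 1 p53 gene lower. The cause of these shifts was not tested. Among named genes of the interaction Arntl, Klhdc8a, Leo1, Zfp646, Rhobtb1, Ccrn4l, Akap1 and Adora1 lost the call under at least 1 alternative.

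With 1 library left out, the interaction had 16 to 33 genes, 4 to 11 of them higher. Counts ran from 3 to 6 for lower clock genes, 1 to 2 for lower p53 and lower cytokine genes, 2 to 4 for higher fatty acid and higher proline genes, 1 to 3 for higher heat shock genes, 1 to 2 for higher citric acid cycle genes and 0 to 1 for higher glucocorticoid-induced genes.

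Same-numbered libraries deviated together weakly, all above 0 (r of 0.089, 0.234, 0.195, 0.128 and 0.010). Libraries of unlike number had r from -0.224 to 0.209. On the second principal component replicates 2 and 5 lay below 0 in both genotypes (-13.6 and -10 in GRflox, -15.3 and -16.9 in CardioGRKO). Replicates 1, 3 and 4 lay above 0 in both (0.4 to 20.9 in GRflox, 4.6 to 15.5 in CardioGRKO). Not every same-numbered r was over 0.1, and not every library correlated best with its own number. The main fit therefore did not take the numbers as pairs. Whether the numbers mark a shared batch was not tested. A replicate block gave 3111 calls at ZT12, 38 in the interaction with 14 higher, and 1 higher glucocorticoid-induced gene.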

Other observations

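Among low-abundance transcripts rises outnumbered falls, unlike among the abundant ones. Of 253 called genes with a mean log2 CPM under 1, 176 were higher and 77 lower in CardioGRKO, with 113 rises and 45 falls of 2-fold or more. Some genes this low may have passed the filter only through a group in which they are high. Such genes were not set apart, so these numbers and sizes are a description only. Of the genes that went against this balance, the cadherin gene Cdh22 stood at 3.22 to 7.42 CPM in GRflox and 0.134 to 0.385 CPM in CardioGRKO (-4.26 ± 0.30). Of those that rose, the keratin gene Krt18 stood at 0.0653 to 0.5202 and 0.683 to 2.57 CPM (2.85 ± 0.42) and the serine protease gene St14 at 0.13 to 0.412 and 1.19 to 2.62 CPM (2.78 ± 0.39). These 3 genes were picked after their values were seen. Of 548 tested long noncoding RNA genes 41 were higher and 49 lower (16.4%), against 21.3% called among 13334 protein-coding genes. The 2 kinds of gene were not matched for level. Calls made up 11.4% of genes with a mean log2 CPM under 0 and 37.0% of those at 6 or more.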
